A study of Mus musculus with 7 samples.

Results

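Collagens are the triple-helical proteins of the extracellular matrix, and their genes were taken here as all 43 symbols of the form Col, number, a, number among the 26607 symbols listed in the RNA-seq values of C2C12 myotubes. Of these, 31 had a mean of at least 0.5 CPM (the reads of a gene as a share of the library total, scaled to the same sum in each library) over the 7 libraries and are described by class. The classes are 9 fibrillar genes, 4 basement membrane genes and 18 others. C2C12 is an established mouse myoblast line, the only line used, and its cells fuse into multinucleated myotubes when serum is reduced. The control group holds 3 libraries of untreated myotubes, replicates 1, 3 and 4. The EPS group holds 4 libraries, replicates 1 to 4, of myotubes given electrical pulse stimulation (EPS), an in vitro contraction model, at 1 Hz for 24 h from 3 days after differentiation and then rested for 1 h. The labels give the libraries as separate samples but not as separate cultures, so p-values measure only the spread between these samples. The RNA comes from the whole culture, so that fewer cells of a type and less RNA per cell cannot be told apart.

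A collagen chain carries repeated triplets of residues that each begin with glycine, which lets the chains wind around each other as a triple helix, so its coding sequence carries a run of triplets of codons that each begin with GGN. Fibrillar collagens have long helices, and types I, III and V assemble into the fibrils of the muscle interstitium. The class also holds types II and XI and, with helices that are interrupted, types XXIV and XXVII. Type IV chains have many interruptions and form the sheet-like network of the basement membrane around each muscle fiber. Type VI forms beaded filaments between the interstitium and that membrane, type VIII is a short-chain collagen of hexagonal networks, types XII and XIV are FACITs (fibril-associated collagens with interrupted helices), and type XIII is a transmembrane collagen that is also found at neuromuscular junctions.

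To show the repeat that defines the family, 10 consecutive triplets (90 bases, 5′ to 3′) from the start of the longest run of glycine triplets are shown for 6 members that the results turn on. Capitals mark the GGN codon that begins each triplet. They were read from the GENCODE M21 transcripts on GRCm38, are all coding exon sequence, and span chr1:45323762-45325413 on the plus strand for Col3a1 (exons 5 to 6), chr8:11247024-11267614 on the minus strand for Col4a1 (exons 2 to 3), chr16:57627994-57628083 on the minus strand for Col8a1 (exon 4), chr4:126311141-126311230 on the plus strand for Col8a2 (exon 4), chr10:61863062-61864003 on the minus strand for Col13a1 (exons 28 to 29) and chr15:55471708-55473306 on the plus strand for Col14a1 (exons 38 to 40). Where exons differ, the span includes the introns between them and the sequence does not.
Col3a1: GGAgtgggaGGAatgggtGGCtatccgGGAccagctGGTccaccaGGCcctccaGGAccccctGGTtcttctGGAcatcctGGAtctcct
Col4a1: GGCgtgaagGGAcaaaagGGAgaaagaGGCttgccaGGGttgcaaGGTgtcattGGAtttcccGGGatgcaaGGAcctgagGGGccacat
Col8a1: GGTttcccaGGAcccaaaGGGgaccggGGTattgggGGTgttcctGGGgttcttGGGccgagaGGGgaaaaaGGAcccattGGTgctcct
Col8a2: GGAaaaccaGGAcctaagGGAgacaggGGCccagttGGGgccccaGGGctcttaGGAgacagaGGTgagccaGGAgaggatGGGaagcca
Col13a1: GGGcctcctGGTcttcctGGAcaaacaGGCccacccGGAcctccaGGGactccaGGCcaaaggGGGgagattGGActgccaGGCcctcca
Col14a1: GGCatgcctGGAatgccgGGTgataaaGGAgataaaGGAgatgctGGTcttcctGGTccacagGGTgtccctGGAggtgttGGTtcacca

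In Col3a1 the uninterrupted run is 344 triplets, and over the 9 fibrillar members the longest run lay between 217 and 344, with a median of 338. The shortest of them is that of Col27a1. In Col4a1 the longest run is 40 triplets and the chain holds 22 separate runs of at least 6. The 4 basement membrane members had longest runs of 30 to 66 triplets and the 18 others of 28 to 113. Col8a1 and Col8a2, whose runs are 60 and 59 triplets, each carry the 10 triplets shown within 1 exon. Only 13.01% of the codons of Col14a1 and 7.63% of those of Col12a1 lie in such runs, against 61.4% in Col8a2 and 73.2% in Col3a1. Among the other FACITs the share was 59.4% in Col16a1, 58.9% in Col19a1, 63.2% in Col22a1 and 11.0% in Col20a1.

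The 7 libraries held 16616917 to 22120641 reads on genes, so that 3 reads, taken as the floor for counting error only, correspond to 0.136 to 0.181 CPM. Control replicate 4 stood apart, with only 359 genes at 1 to 5 reads where each of the rest had 2670 to 3181, and results are therefore also given without it. Myotube markers were present in every library, with a level summed over 10 of 10 listed genes of 17490 to 20771 CPM in the control group and 11877 to 18618 CPM in the EPS group. Of the 10, 0 passed both thresholds given below. Of them 1, Mymx, was lower at an unadjusted limma P under 0.05, as were 3.21% of all tested genes. Mymx was at 62.3 ± 17.4 CPM in the control group and 33.5 ± 20.9 CPM in the EPS group. Of the 10, only Mymk had a positive log2 fold change (0.12). That of Myog was -1.07, and -0.47 without control replicate 4, which held it at 1794 CPM. The sum over 8 proliferating myoblast markers was 341 to 418 CPM in the control group and 458 to 1127 CPM in the EPS group, with 4 of 8 higher at an unadjusted limma P under 0.05, as were 8.4% of all tested genes. The 8 fibroblast markers summed to 129 to 235 CPM in the control group and 186 to 302 CPM in the EPS group. At an unadjusted limma P under 0.05, 2 of 8 were higher (8.4% of all tested genes) and 1 was lower (3.21%). Of these, Ly6a was called up-regulated, as were 0.966% of all tested genes. Its level was 65.4 ± 19.0 CPM in the control group and 143 ± 53.1 CPM in the EPS group. Pdgfra was at 18.9 ± 5.99 and 30.3 ± 3.07 CPM with every EPS library above every control library. Dpt, the lower one, was at 2.05 and 1.14 CPM with every EPS library below every control library. Cd34 and Pi16 had log2 fold changes of -0.43 and -0.38, Tcf21 was at 0 in all libraries and Thy1 at 0 in 5 of 7. The 8 tendon and cartilage markers summed to 185 to 430 CPM in the control group and 191 to 275 CPM in the EPS group. At an unadjusted limma P under 0.05, 1 of 8 was higher (8.4% of all tested genes). The 6 osteoblast markers summed to 40.4 to 79.6 CPM in the control group and 63.8 to 79.1 CPM in the EPS group. The 6 endothelial and blood markers summed to 0.933 to 2.23 CPM. The part of these cell types in the results below was not tested.

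The first question was how much of the transcriptome the collagens made up. Of all reads on genes, collagens took 1.33% in control replicate 1, 1.74% in control replicate 3 and 1.05% in control replicate 4, and 1.28%, 1.15%, 1.19% and 0.932% in the EPS libraries in the order of their numbers. The groups overlapped, with EPS replicate 4 below every control library and control replicates 1 and 3 above every EPS library. Summed over the members, the control mean was 13720 ± 3479 CPM (SD, n = 3), and that of EPS was 11377 ± 1488 CPM (SD, n = 4). Fibrillar genes held 77.8% to 81.1% of the collagen reads in the control libraries and 77.7% to 80.2% in the EPS libraries. Their sum was 10870 ± 3004 CPM in the control group and 8986 ± 1146 CPM in the EPS group. The basement membrane genes summed to 596 ± 86.5 CPM and 610 ± 41.5 CPM, which differ by less than the spread of either group. The other genes summed to 2254 ± 410 CPM and 1781 ± 346 CPM.

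Levels were compared between genes per kilobase of exon, since a longer transcript yields more reads. Col3a1 had the highest control level, 822 ± 116 CPM per kb (SD, n = 3), followed by Col1a2 at 343 ± 159, Col5a2 at 309 ± 132, Col5a1 at 169 ± 55.8 and Col1a1 at 119 ± 35.3 CPM per kb. The mean ± SD ranges of Col1a2 and Col5a2 overlap, as do those of Col5a1 and Col1a1. These SDs are taken over libraries, so an overlap does not show that genes are level within a library. The highest member outside the fibrillar class was Col6a1 at 111 ± 18.9 CPM per kb, within the spread of Col1a1. Next came Col6a2 at 78.1 ± 13.01, Col12a1 at 56.2 ± 12.4 and Col8a1 at 53.8 ± 3.83 CPM per kb, and the last pair lies within its spread. The type IV chains Col4a2 and Col4a1, at 38.7 ± 4.52 and 33.0 ± 5.53 CPM per kb, were close to Col5a3 at 33.2 ± 4.0 CPM per kb. Col8a2, at 6.78 ± 2.36 CPM per kb, was far lower than its relative Col8a1.

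**Figure D1:**
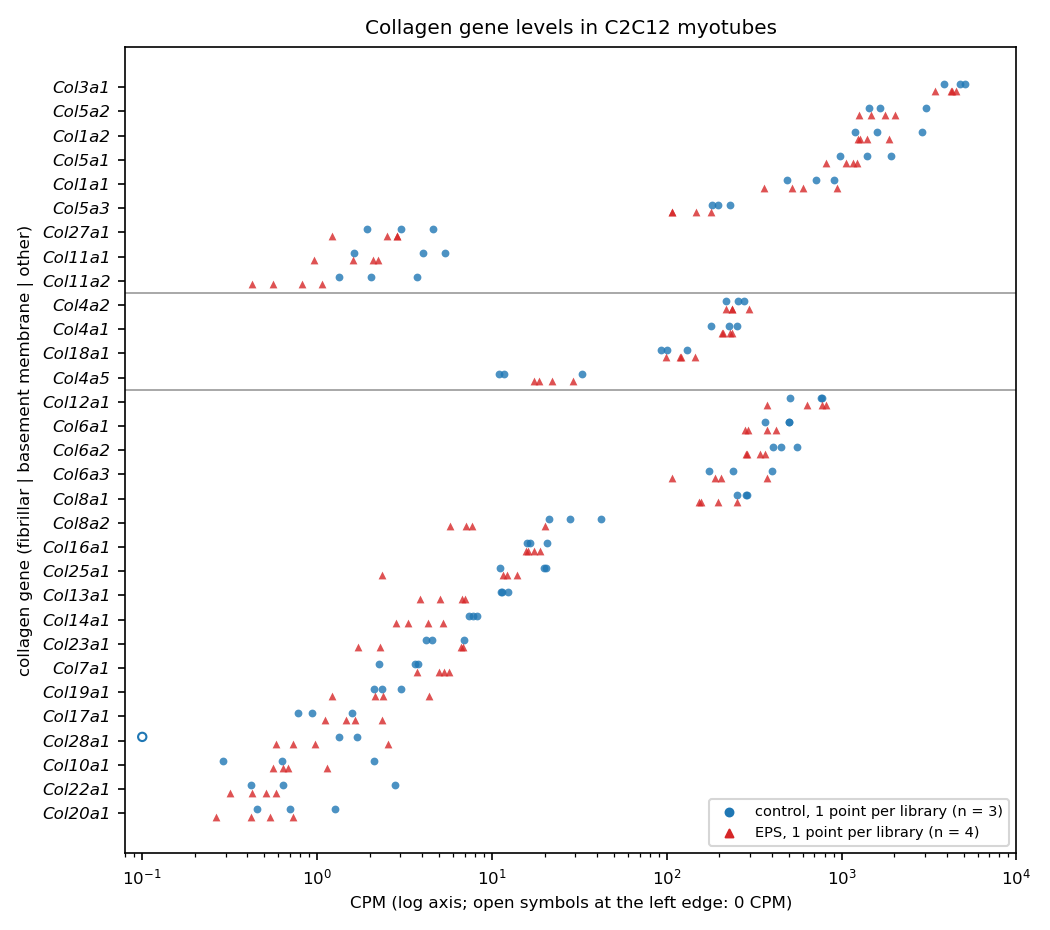
Level of the 31 collagen genes with a mean of at least 0.5 CPM, in CPM on a log axis and not divided by length, by class, with 1 point for each of the 3 control and 4 EPS libraries and an open symbol for a value of 0. Col3a1 is highest, at 3411 to 5097 CPM, and the control and EPS points of the basement membrane genes intermingle.

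The comparison of EPS with control was made with limma on log2(CPM + 1). All 19144 genes with a read in some library entered the fit, and a gene was called when its two-sided P, without adjustment, was under 0.01 and its change over 2-fold. Of the 43 members, 41 could be tested, 0 were up-regulated (0.966% of all tested genes were) and 1, Col8a2, was down-regulated (0.439% of all tested genes, and 0.644% of those of at least 0.5 CPM), where 1.41% of all tested genes were called in either direction. No member had a Benjamini-Hochberg adjusted limma p under 0.05, against 0.141% of all genes, while at an unadjusted P under 0.05 a total of 7 members were lower (3.21% of all genes and 3.83% of those of at least 0.5 CPM) and 1 was higher (8.4% of all genes). At an unadjusted P under 0.01, 4 members were lower (1.34% of all genes) and 1 was higher (2.83% of all genes). By the count tests on recovered reads, edgeR called 4 members down-regulated (Col8a2, Col11a2, Col13a1 and Col14a1) where it called 1.57% of all genes down-regulated. DESeq2 called 5, with Col11a1 added, where it called 1.4% of all genes down-regulated, and neither called a member up-regulated. The adjusted p was under 0.05 for Col8a2 and Col13a1 by edgeR, and for these, Col11a2 and Col14a1 by DESeq2, where 290 of all genes passed by edgeR and 497 by DESeq2. Every EPS library lay below every control library in 6 of the 31 members (3.59% of the genes of at least 0.5 CPM, 2.85% of all tested genes). Every EPS library lay above every control library in 0 of the 31 and in 1 of the 41 tested members (7.76% of all tested genes). The 6 lower ones are Col5a3, Col6a2, Col8a2, Col11a2, Col13a1 and Col14a1. Without control replicate 4, the count was 12 of 31, beside 6.68% of the genes of at least 0.5 CPM.

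Over the 31 members the median log2 fold change was -0.29, and it was negative in 25. The median over all genes of at least 0.5 CPM was 0.097, and 4821 of these 13047 genes had a negative value. Scaling by the median of ratios moved the median over genes of at least 1 CPM from 0.10 to -0.0048, and the median of the members to -0.39, so that the distance between members and other genes was about the same under both. That scaling also moved the share of up-regulated genes among all changed genes from 68.8% to 52.8%. By class, the log2 fold change was negative in 9 of 9 fibrillar genes (median -0.31), in 1 of 4 basement membrane genes (median 0.092) and in 15 of 18 others (median -0.36). Col1a2 and Col5a2 turned to 0.040 and 0.054 without control replicate 3 and Col3a1 to 0.091 with quantile normalization, and without control replicate 3 the value was negative in 21 of the 31 members. Members of 1 library are not replicates of a condition. Control replicate 3 was the highest of the 7 libraries in 15 of the 31 members and EPS replicate 4 was the lowest in 17. Without control replicate 3 the members' median was -0.081 and without EPS replicate 4 it was -0.19. It was -0.41 without control replicate 4, where 27 of the 31 values were negative.

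**Figure D2:**
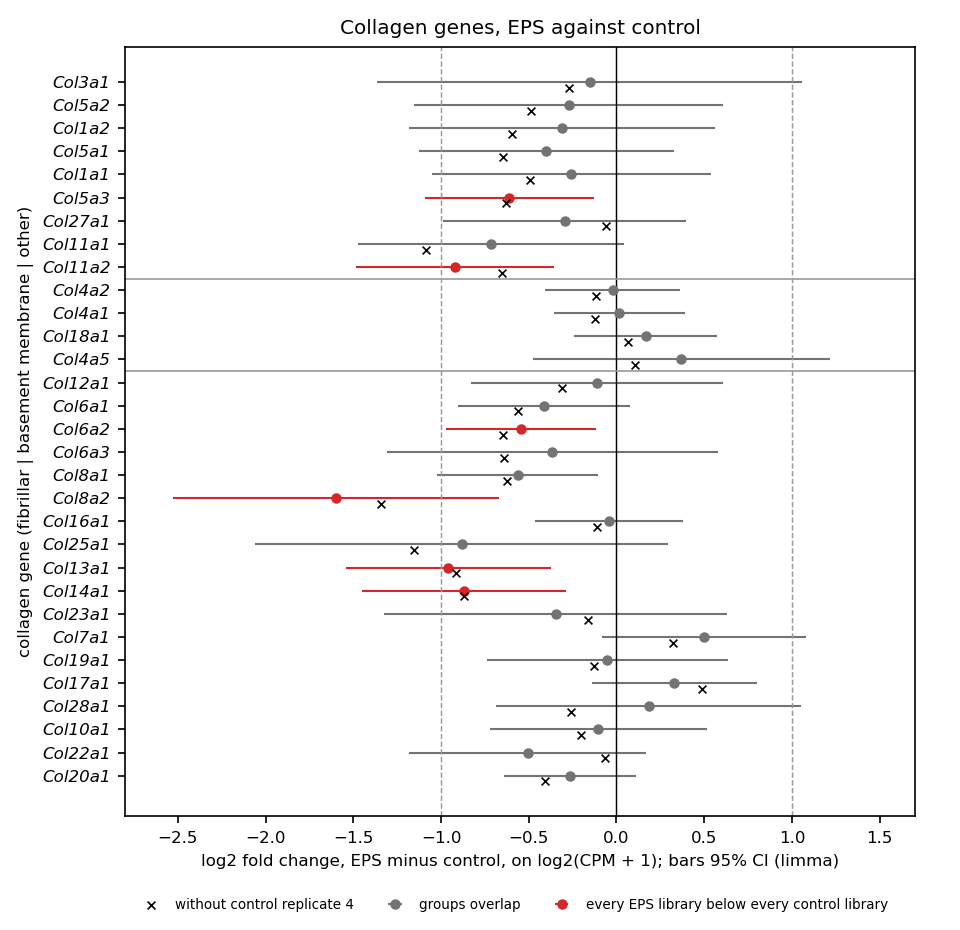
Log2 fold change of EPS against control for the 31 collagen genes, with 95% confidence intervals from limma as bars and, as crosses, the value without control replicate 4. Red marks the 6 genes in which every EPS library lies below every control library, and the dashed lines mark 2-fold. Col8a2 has the lowest value, -1.60, and the 4 basement membrane genes lie near 0 or above it.

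Col8a2 (chr4:126286793-126314330, plus strand), a short-chain collagen, was the member that passed both thresholds. It encodes a chain of the type VIII collagen best known from Descemet's membrane of the cornea and from vessel walls. Its level was 21.2 CPM in control replicate 1, 28.1 CPM in replicate 3 and 42.0 CPM in replicate 4, against 20.2, 7.06, 7.67 and 5.79 CPM in EPS replicates 1 to 4. The groups do not overlap, although EPS replicate 1 lies just below the lowest control library and far above the other EPS libraries. The control mean was 30.4 ± 10.6 CPM (SD, n = 3), that of EPS was 10.2 ± 6.70 CPM (SD, n = 4) or 0.334 of it, and the log2 fold change was -1.60 ± 0.41 (SE), with a limma adjusted p of 0.173 and an exact permutation p of 0.0571. Without control replicate 4 the log2 fold change was -1.34 at an unadjusted limma P of 0.0156, which no longer passes. The call was also lost without EPS replicate 2, 3 or 4, where the log2 fold change was between -1.53 and -1.41. edgeR gave -1.67 with an adjusted p of 0.014.

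Col8a1 (chr16:57624258-57754737, minus strand), the related chain, was at 289, 283 and 252 CPM in the control libraries and 253, 156, 195 and 153 CPM in EPS replicates 1 to 4. EPS replicate 1 overlapped the control group here, by a margin of less than 1 CPM over control replicate 4. The log2 fold change was -0.56 ± 0.20 (SE), with a limma adjusted p of 0.318. The ratio of Col8a2 to Col8a1 per length was 0.129 ± 0.055 in the control group and 0.058 ± 0.022 in the EPS group, and its exact permutation p of 0.0857, or 0.686 after Benjamini-Hochberg adjustment over the 8 chain pairs compared, did not separate the groups.

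The transmembrane collagen Col13a1 (chr10:61838236-61979108, minus strand) was also among the lower members. It was at 11.4, 11.3 and 12.4 CPM in the control libraries and 6.75, 7.02, 5.02 and 3.88 CPM in EPS replicates 1 to 4. The groups were well apart, with the highest EPS library more than 4 CPM below the lowest control library. The mean was 11.7 ± 0.636 CPM (SD, n = 3) and 5.67 ± 1.48 CPM (SD, n = 4), and the log2 fold change of -0.96 ± 0.26 (SE) missed the 2-fold threshold. The limma adjusted p was 0.191, the exact permutation p was 0.0286, the smallest that 3 libraries against 4 can give, and edgeR gave -1.15 with an adjusted p of 0.0329. Of the other transmembrane collagens, Col25a1, whose product is found in amyloid plaques and is needed for motor innervation of muscle, was at 20.5, 19.9 and 11.1 CPM against 11.6, 13.8, 12.2 and 2.34 CPM. Its groups overlap through control replicate 4, and EPS replicate 4 is the low library. Col23a1 (log2 fold change -0.35, and -0.16 without control replicate 4) and Col17a1, the hemidesmosome collagen (0.33), had intervals that include 0. Without control replicate 4, Col17a1 was 0.49 (unadjusted limma P of 0.0412).

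Among the FACITs, Col14a1 (chr15:55307750-55520803, plus strand), which binds to the surface of fibrils, was at 7.40, 8.25 and 7.82 CPM in the control libraries and 5.26, 3.31, 4.29 and 2.81 CPM in EPS replicates 1 to 4. No EPS library reached the control range. The log2 fold change was -0.87 ± 0.26 (SE), with a limma adjusted p of 0.231, an exact permutation p of 0.0571 and the same value of -0.87 without control replicate 4. For Col14a1 edgeR gave -1.09 with an adjusted p of 0.0808, and its DESeq2 adjusted p was under 0.05. Col12a1, the most abundant FACIT in CPM per kb, was at 764, 777 and 509 CPM in the control libraries and 632, 768, 818 and 376 CPM in the EPS libraries. Its groups overlapped throughout, and the log2 fold change of -0.11 had a 95% interval from -0.83 to 0.61. The other FACITs of at least 0.5 CPM are Col16a1, Col19a1, Col20a1 and Col22a1, whose log2 fold changes lay between -0.51 and -0.043. The lowest, that of Col22a1, was -0.068 without control replicate 4, which held it at 2.80 CPM, while control replicates 1 and 3 held it at 0.641 and 0.421 CPM. Without control replicate 4, Col20a1 was -0.41 (unadjusted limma P of 0.0346), Col16a1 -0.11 and Col19a1 -0.13.

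Type VI collagen is the filament whose chains are mutated in Bethlem and Ullrich muscular dystrophies. Col6a2 (chr10:76595762-76623630, minus strand) was at 447, 556 and 404 CPM in the control libraries and 364, 289, 342 and 284 CPM in EPS replicates 1 to 4. Its groups do not overlap, with a log2 fold change of -0.55 ± 0.19 (SE), a limma adjusted p of 0.298 and an exact permutation p of 0.0286. Its neighbour and partner Col6a1 (chr10:76708792-76726168, minus strand) was at 497, 501 and 365 CPM in the control libraries and 423, 293, 372 and 281 CPM in the EPS libraries. Control replicate 4 lies within the EPS range there, and the log2 fold change of -0.41 became -0.56 without that library. Col6a3, the third chain, was at 238, 400 and 174 CPM against 373, 107, 188 and 204 CPM, with a log2 fold change of -0.37 and a 95% interval from -1.31 to 0.58. It was -0.044 without control replicate 3, -0.071 without EPS replicate 2, -0.67 without EPS replicate 1 and -0.64 without control replicate 4. The ratio of Col6a1 to Col6a2 per length was 1.42 ± 0.176 in the control group and 1.56 ± 0.114 in the EPS group, and the libraries of the groups overlapped.

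**Figure D3:**
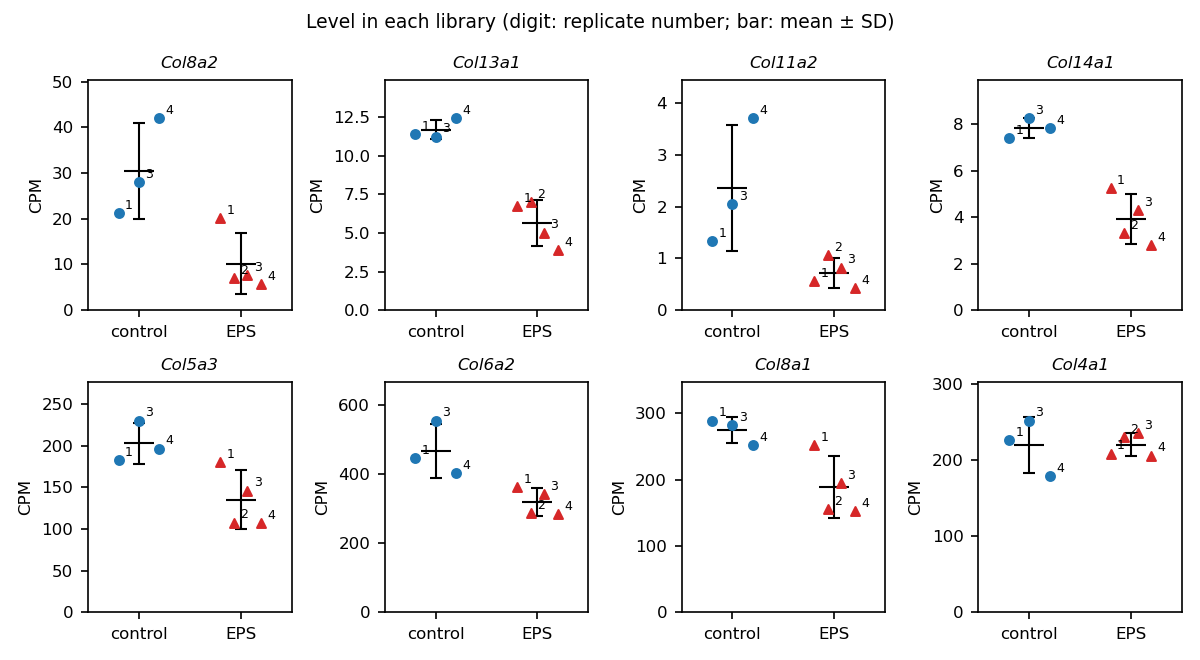
CPM in each library, 1 panel per gene on its own linear axis from 0, with control replicates 1, 3 and 4 and EPS replicates 1 to 4 marked by their numbers and the group mean ± SD as bars. In Col13a1 the control libraries lie at 11.3 to 12.4 CPM and the EPS libraries at 3.88 to 7.02 CPM, while in Col8a2 EPS replicate 1, at 20.2 CPM, lies apart from the other EPS libraries.

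In the fibrillar class, the groups did not overlap in Col11a2 and Col5a3 among the 9 members (EPS lay below control in 3.59% of all genes of at least 0.5 CPM). Without control replicate 4 they also did not overlap in Col3a1, Col5a1 and Col11a1 (6.68% of those genes). Col11a2 (chr17:34039437-34066685, plus strand), a chain that nucleates fibrils in cartilage, was at 1.34, 2.05 and 3.71 CPM in the control libraries and 0.559, 1.07, 0.822 and 0.425 CPM in EPS replicates 1 to 4. The groups do not overlap, but the levels are low and control replicate 4 is the highest library. The log2 fold change was -0.92 ± 0.25 (SE), with a limma adjusted p of 0.193 and an exact permutation p of 0.0286, and it was -0.65 without control replicate 4. On recovered reads, edgeR gave -1.82 for Col11a2 with an adjusted p of 0.0704, and its DESeq2 adjusted p was under 0.05. Its partner Col11a1 was at 4.02, 5.42 and 1.63 CPM in the control libraries and 2.23, 2.09, 1.60 and 0.956 CPM in the EPS libraries. Here control replicate 4 is the low control library, inside the EPS range, and the log2 fold change of -0.72 became -1.09, past both thresholds, without it, and -0.44 without control replicate 3. Control replicate 4 thus lay at opposite ends of the control group for the Col11a1 and Col11a2 chains.

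Col5a3 (chr9:20770050-20815067, minus strand), a minor chain of type V collagen, which sets fibril diameter, was at 183, 230 and 197 CPM in the control libraries and 180, 108, 146 and 107 CPM in EPS replicates 1 to 4. The groups do not overlap, by a margin of less than 3 CPM between control replicate 1 and EPS replicate 1. The log2 fold change was -0.61 ± 0.21 (SE), with a limma adjusted p of 0.301 and an exact permutation p of 0.0571. In the other type V chains the groups overlapped. Col5a1 was at 1403, 1927 and 980 CPM in the control libraries and 1161, 1053, 1218 and 812 CPM in the EPS libraries, a log2 fold change of -0.40. Col5a2 was at 1658, 3048 and 1439 CPM in the control libraries and 1778, 2014, 1469 and 1259 CPM in the EPS libraries, a log2 fold change of -0.27. For Col5a1, control replicates 1 and 3 lie above all EPS libraries, and for Col5a2 control replicate 3 alone. Without control replicate 4 the log2 fold changes were -0.65 for Col5a1, whose groups then do not overlap, -0.49 for Col5a2 and -0.63 for Col5a3, and without control replicate 3 they were -0.16 for Col5a1 and 0.054 for Col5a2.

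In the type I and type III chains the groups overlapped over the 7 libraries. Col1a1, the main chain of type I collagen, was at 716, 909 and 490 CPM in the control libraries and 936, 360, 605 and 523 CPM in the EPS libraries. EPS replicate 1 was the highest and EPS replicate 2 the lowest of all 7 libraries. Col1a2, its partner, was at 1603, 2883 and 1198 CPM against 1859, 1390, 1245 and 1278 CPM. The log2 fold changes were -0.26 for Col1a1, with a 95% interval from -1.05 to 0.54, and -0.31 for Col1a2, from -1.18 to 0.56. When 1 library was left out, Col1a1 lay between -0.50 (without control replicate 4) and -0.035 (without EPS replicate 2), and Col1a2 between -0.59 (without control replicate 4) and 0.040 (without control replicate 3). Col3a1, the type III collagen of pliable tissues, was at 4768, 5097 and 3854 CPM in the control libraries and 4205, 4271, 4533 and 3411 CPM in the EPS libraries. Its log2 fold change was -0.15, with a 95% interval from -1.37 to 1.06, and without control replicate 4, where every EPS library lies below both control libraries, it was -0.27. It was -0.067 without EPS replicate 4 and -0.071 without control replicate 3. The limma interval of Col3a1 includes a 2-fold change in either direction, and those of Col1a1 and Col1a2 include a 2-fold decrease. Limma sets these widths partly from the variance trend over all genes. The Col3a1 libraries themselves spanned only 3411 to 5097 CPM. The unadjusted P of Col3a1 was 0.78 by limma, 0.60 by limma on genes of at least 1 CPM and 0.19 by DESeq2. The ratio of Col1a1 to Col1a2 per length was 0.364 ± 0.063 in the control group and 0.386 ± 0.104 in the EPS group.

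In the basement membrane class the groups overlapped in 4 of 4 members. Col4a1 and Col4a2, which form the common type IV trimer, are transcribed in opposite directions from start sites that overlap by 22 bases in GENCODE M21, chr8:11312805-11312826, shown here on the plus strand.
Overlap of Col4a1 and Col4a2: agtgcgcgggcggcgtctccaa

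Col4a1 (chr8:11198423-11312826, minus strand) was at 227, 252 and 179 CPM in the control libraries and 209, 230, 236 and 206 CPM in the EPS libraries. All EPS libraries lie within the control range. Its log2 fold change was 0.017, with a 95% interval from -0.35 to 0.39, which leaves out a 2-fold change in either direction. Col4a2 (chr8:11312805-11449287, plus strand) was at 275, 255 and 218 CPM in the control libraries and 217, 236, 297 and 235 CPM in the EPS libraries, a log2 fold change of -0.021 with an interval from -0.41 to 0.36. The sign of both values depends on the scaling or on the libraries kept. The ratio of the chains per length was 0.851 ± 0.091 in the control group and 0.874 ± 0.081 in the EPS group. Col4a5, a chain of the X-linked pair mutated in Alport syndrome, was at 11.7, 32.8 and 11.0 CPM against 21.9, 29.3, 18.5 and 17.4 CPM, with a log2 fold change of 0.37 and an interval from -0.48 to 1.22. It was 0.85 without control replicate 3 (unadjusted limma P of 0.0116), and 0.15, 0.11 and 0.22 without control replicate 1, control replicate 4 or EPS replicate 2. Col18a1, the source of endostatin, was at 101, 131 and 92.4 CPM against 145, 99.5, 119 and 121 CPM, a log2 fold change of 0.17 that was 0.063 without control replicate 4, 0.078 without EPS replicate 1, 0.31 without control replicate 3 and 0.26 without EPS replicate 2. Whether the basement membrane genes differ from the other classes in their response was not tested.

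Among the remaining members, Col7a1, the anchoring fibril collagen, had the highest log2 fold change of the 31, at 0.50 with an interval from -0.08 to 1.08, and 0.32 without control replicate 4. It was at 3.79, 3.61 and 2.26 CPM in the control libraries and 5.35, 5.65, 4.98 and 3.72 CPM in EPS replicates 1 to 4, so that only EPS replicate 4 lay within the control range. The hypertrophic cartilage collagen Col10a1 had a mean of 0.864 CPM, Col28a1 of 1.13 CPM and Col27a1, a fibrillar chain, of 2.72 CPM, with intervals that include 0. The log2 fold change of Col28a1, which was at 0 in control replicate 4, was 0.18, and -0.26 without that library, and that of Col27a1 was -0.29, and -0.057 without it. The 12 members under 0.5 CPM had at most 19 reads in a library, and 2 of them, Col6a6 and Col9a1, were at 0 in every library. In control replicate 4, 11 of the 12 were at 0. Col24a1, with a mean of 0.4996 CPM, was just outside the limit, and Col20a1, at 0.624 CPM, just inside it. One of the 12, Col6a4, named after its values were seen, lay above the control libraries in all EPS libraries (0.186 to 0.292 CPM against 0 to 0.175 CPM), at or near the floor of 3 reads.

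The members whose groups do not overlap were also looked at for letters in their promoters. The 250 bases before the RefSeq start (GRCm38.p6) are shown for 3 of those 6 members, with no annotated UTR inside the window. They are chr17:34038888-34039137 on the plus strand for Col11a2, chr10:61979109-61979358 on the minus strand for Col13a1 and chr9:20815068-20815317 on the minus strand for Col5a3. Capitals mark matches, on either strand, to CANNTG (an E-box, the form bound by MyoD-family factors), to CCAAT (a promoter element), to GGGCGG (a GC box), to TATAAA (the box that binds the TATA-binding protein) and to TGACTCA (an AP-1 form). No match overlaps another.
Col11a2: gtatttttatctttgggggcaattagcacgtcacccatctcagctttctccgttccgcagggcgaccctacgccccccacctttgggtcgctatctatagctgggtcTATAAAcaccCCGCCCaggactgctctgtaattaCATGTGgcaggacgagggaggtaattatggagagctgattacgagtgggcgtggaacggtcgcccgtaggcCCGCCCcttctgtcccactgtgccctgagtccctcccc
Col13a1: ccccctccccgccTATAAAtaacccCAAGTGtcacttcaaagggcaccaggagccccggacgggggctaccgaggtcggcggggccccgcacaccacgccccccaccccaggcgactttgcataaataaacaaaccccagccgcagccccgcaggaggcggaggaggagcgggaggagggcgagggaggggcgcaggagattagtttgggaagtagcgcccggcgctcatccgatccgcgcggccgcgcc
Col5a3: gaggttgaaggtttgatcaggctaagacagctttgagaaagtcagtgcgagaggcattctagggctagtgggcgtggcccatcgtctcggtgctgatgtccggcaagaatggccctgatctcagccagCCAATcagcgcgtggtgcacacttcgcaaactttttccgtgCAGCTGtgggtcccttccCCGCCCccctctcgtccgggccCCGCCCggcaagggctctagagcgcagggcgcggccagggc

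Col11a2 and Col13a1 each hold 1 CANNTG and 1 TATAAA match, Col5a3 holds 1 CANNTG, 1 CCAAT and 2 GGGCGG matches, and Col11a2 holds 2 GGGCGG matches. For Col11a2 the RefSeq start, at 34039138, lies upstream of the GENCODE M21 gene start. Over all 32851 windows of that length, 66.2% held CANNTG, 33.8% CCAAT, 32.7% GGGCGG, 12.4% TATAAA and 4.46% TGACTCA. Of the 28 windows matched to 26 of the 31 collagen genes of at least 0.5 CPM, 46.4% held CANNTG, 39.3% CCAAT, 60.7% GGGCGG, 17.9% TATAAA and 3.57% TGACTCA. A match is only a description of letters.

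A collagen chain needs a set of other proteins to be folded, exported, trimmed and crosslinked. Together with 14 small proteoglycans and fibril partners and 9 collagen receptors, 65 genes on 6 lists were looked up. Of these 60 could be tested, and 0 passed both thresholds in either direction. At an unadjusted limma P under 0.05, 2 of the 60 were higher (8.4% of all tested genes) and 9 were lower (3.21% of all tested genes), and no limma adjusted p was under 0.05. edgeR and DESeq2 on recovered reads each called 0 genes up-regulated and 4 down-regulated, where edgeR called 1.57% and DESeq2 1.4% of all genes down-regulated. These 4 are the small proteoglycans and fibril partners Lum, Ogn, Aspn and Postn. The adjusted p was under 0.05 for Aspn by edgeR and for Aspn and Adamts2 by DESeq2, among the 290 and 497 genes that passed over all. Their list had the lowest median log2 fold change, -0.39 over 13 tested genes, followed by the collagen receptors at -0.19 (7 genes) and folding and hydroxylation at -0.13 (19 genes). The medians of the propeptide cleavage, ER export and crosslinking lists were -0.062 (8 genes), 0.039 (8 genes) and 0.26 (5 genes), beside 0.041 over all tested genes.

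Plod1, a lysyl hydroxylase that prepares collagen for crosslinks, was at 124, 146 and 145 CPM in the control libraries and 216, 244, 248 and 181 CPM in EPS replicates 1 to 4. Every EPS library lies above every control library, and the log2 fold change was 0.67 ± 0.16 (SE) with a limma adjusted p of 0.154. Loxl2, a lysyl oxidase that makes the crosslinks, was at 5.31, 10.4 and 6.15 CPM against 15.2, 12.0, 15.03 and 13.8 CPM, a log2 fold change of 0.90 ± 0.26 (SE) with a limma adjusted p of 0.226. Its groups do not overlap either. Adamts2, which removes the amino-terminal propeptide of fibrillar procollagens, was at 76.0, 72.6 and 77.8 CPM in the control libraries and 55.9, 39.6, 51.8 and 39.8 CPM in the EPS libraries. The control libraries are close together and all EPS libraries lie below them, with a log2 fold change of -0.69 ± 0.17 (SE) and a limma adjusted p of 0.146. All 3 had an exact permutation p of 0.0286. Of the 60 tested genes, every EPS library lay above every control library in 2 (7.76% of all tested genes) and below in 4 (2.85% of all tested genes). The other genes of the lists with every EPS library below every control library, named after their values were seen, were the collagen chaperone Serpinh1 (log2 fold change -0.46), the prolyl 3-hydroxylase P3h1 (-0.46, and -0.25 without control replicate 4) and the propeptidase Adamts14 (-0.68).

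**Figure D4:**
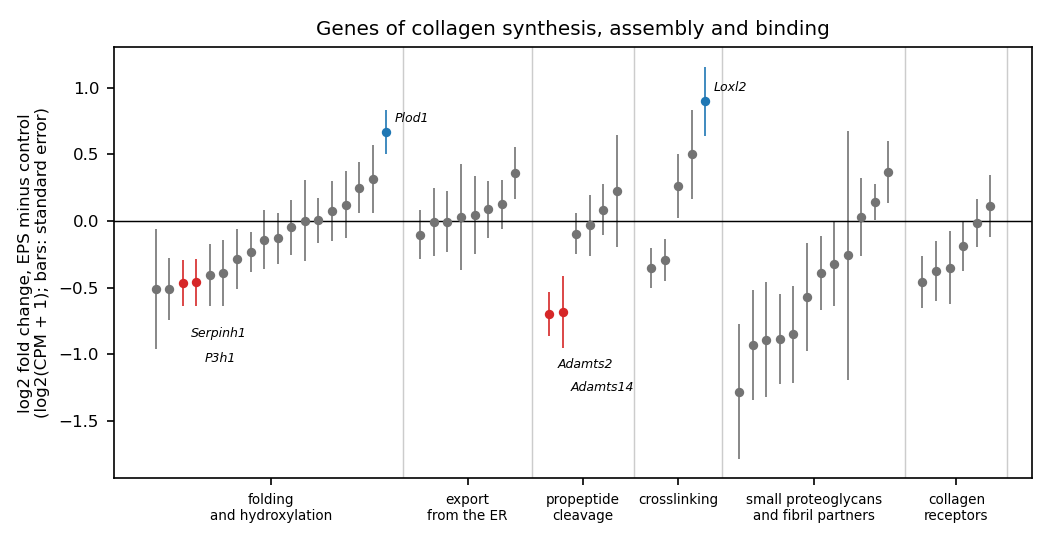
Log2 fold change of EPS against control, with limma standard errors as bars, for the 55 genes of collagen synthesis, assembly and binding with a mean of at least 0.5 CPM, by list. Blue marks the 2 genes with every EPS library above every control library, Plod1 and Loxl2, and red the 4 with every EPS library below, Serpinh1, P3h1, Adamts2 and Adamts14.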

How the data were processed

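RNA-seq values of 3 control and 4 EPS libraries were analysed. From C2C12 myotubes, the authors made directional libraries of poly(A) RNA, mapped paired-end reads of 100 bp to GRCm38 with STAR 2.5.4b and deposited CPM, 1 value per symbol and library, scaled to the library total. The counter, its annotation, its strand setting and its handling of multiply mapped reads are not given in the sources used here, so values of overlapping genes such as Col4a1 and Col4a2 are uncertain. CPM were whole multiples of 1 read (at least 99.9962% of values within 0.01), and depth was 16616917 to 22120641 reads.

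From these values, log2(CPM + 1) was fitted with limma 3.58.1 in R 4.3.3 (mean-variance trend, no covariate, Benjamini-Hochberg adjustment over all genes tested). Single genes and chain ratios had exact two-sided permutation tests. On this scale the fold change of low genes is understated. Alternatives were edgeR 4.0.16 and DESeq2 1.42.0 on recovered reads, a pseudocount of 0.1 or 0.5, genes of at least 1 CPM on average, no filter, quantile normalization, median-of-ratios scaling, P under 0.001, the replicate number as a block and leaving out each library. Named members were those called, with P under 0.05 or with groups that do not overlap, the 3 highest of each class and their chain partners. Pathway genes were named at P under 0.01. The other members of at least 0.5 CPM are outside this rule and were named after their values were seen. Members, lists and tests were chosen with earlier results of these data known. Tests were tried on simulated reads. Positions and exon lengths are those of GENCODE M21.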

Additional observations from a re-analysis of the deposited data

Results flagged for a closer look

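Col8a2 in EPS replicate 1 was at 20.2 CPM, while the other EPS libraries were at 5.79 to 7.67 CPM. The gap to the nearest of them is 0.869 of the range of the group, above Dixon's 95% critical value for 4 samples. It was the 1 member so marked among the 31 EPS groups looked at, and chance marks about 1 in 20 such groups. Without this library the log2 fold change of Col8a2 was -1.96.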

How the results depend on the processing

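The number of down-regulated collagen genes, 1 by limma (0.439% of all genes), was 2 with median-of-ratios scaling (0.627%). It was 3 with quantile normalization (0.637%) or a pseudocount of 0.5 (0.611%). It was 4 with a pseudocount of 0.1 (0.815%) or with edgeR (1.57%), and 5 with DESeq2 (1.4%). It was 0 with no filter on low values (0.214%) or P under 0.001, for which no share over all genes was taken. Leaving out 1 library gave 0 to 2 (0.302% to 0.583% of all genes), with 0 without EPS replicate 3 or 4. Col11a1 took the place of Col8a2 without control replicate 4. With the replicate number as a block the count was 0 (0.324% of all genes). EPS replicate 2 has no control of its number, so the block gives the fold changes without that library. The same-number libraries' deviations from their group means correlated at 0.25, -0.45 and 0.068 over 12256 genes. Deviations within a group depend on each other, so these values cannot decide whether the numbers pair the libraries. The main fit used no pairing. Of the pathway genes, 0 down-regulated became 4 with edgeR (1.57% of all genes) or DESeq2 (1.4%). The count was 1 with quantile normalization (0.637%) and 2 with the block (0.324%). Those 2, Dcn and Lum, were also called without EPS replicate 2 and with no block. Leaving out 1 library gave 0 to 2 (0.302% to 0.583%). The up-regulated count of 0 became 0 to 1 (Loxl2, without control replicate 3, where 232 of all genes were called up-regulated). The 6 members with EPS below control (3.59% of all genes of at least 0.5 CPM) were 6 to 12 when 1 library was left out (4.15% to 6.68%). This alternative was chosen after seeing the data.

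Of 320 combinations of 20 named members and settings, 280 kept their direction and side of the thresholds, 20 passed where they had not, 6 no longer passed (all Col8a2) and 14 changed sign. Col3a1 was 0.091 with quantile normalization. Col4a1 was -0.10 with DESeq2 and with median-of-ratios scaling, -0.092 with edgeR, -0.032 with quantile normalization and -0.0056 with the block. Leaving out 1 library gave -0.12 to 0.12 for Col4a1, -0.12 to 0.053 for Col4a2, -0.59 to 0.040 for Col1a2, -0.49 to 0.054 for Col5a2 and -0.31 to 0.13 for Col12a1. The cause was not tested. The members under 0.5 CPM had at most 19 reads in a library, and 11 of the 12 were at 0 in control replicate 4, which had the highest total.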
